A study of Mus musculus with 8 samples.

Results

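Deubiquitinating enzymes, the proteases that remove ubiquitin from histones, receptors and other proteins, were measured in pachytene spermatocytes lacking *Setdb1*. Genes were taken by name from the protein-coding genes on standard chromosomes, and 68 of the 22603 genes in the table matched. They comprised 50 genes of the ubiquitin-specific protease family (USP), 10 of the ovarian tumour family (OTU), 4 of the ubiquitin carboxy-terminal hydrolase family (UCH: *Bap1*, *Uchl1*, *Uchl3* and *Uchl5*), 3 metalloproteases of the JAMM family (*Stambp*, *Stambpl1* and *Brcc3*) and *Cyld*. On the X chromosome lay 8 of them and on the Y chromosome 1, and the other 59 were autosomal. All 68 passed the filter on low values and were tested.

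The *Setdb1* cKO cells came from *Setdb1* flox/- males with an *Ngn3-Cre* transgene, whose recombinase works in the male germline, beginning in spermatogonia, and spares testicular somatic cells. These males also carry an EYFP Cre reporter at *Gt(ROSA)26Sor*, and in this H3K9 methyltransferase the SET domain has lost its core. The cKO mice were made on the C57BL/6J background. The WT cells came from C57BL/6J males at postnatal day 15 without the transgene. The cKO cells came from males at that day or later, with no age recorded for each sample, so age, transgene and mutation cannot be told apart. Early-to-mid pachytene cells were sorted by their Hoechst fluorescence, 500 for each genotype, and amplified by Smart-seq2 for single-end reads of 75 bases, giving 2 cKO and 2 WT samples. Whether samples of a genotype came from separate animals is not stated, and each p-value therefore reflects the spread among these samples alone, possibly a technical spread. With 2 against 2, an exact two-sided permutation test of a single value cannot go below p = 0.33.

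Ubiquitin is attached to lysines of target proteins singly or as chains, and deubiquitinating enzymes trim or remove it. At endosomes they act on sorting receptors, at the proteasome they recycle ubiquitin, and in the nucleus they take ubiquitin off histones H2A and H2B and off DNA repair proteins. In pachytene spermatocytes the unsynapsed X and Y chromosomes form the XY body, where genes are silenced by meiotic sex chromosome inactivation and where ubiquitinated H2A accumulates.

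Values are in TPM, a transcript level corrected for transcript length. Fold changes are differences of log2(TPM + 1) between genotypes, which understate the change of low genes, and ± is the standard error of the limma fit. A gene was called when its Benjamini-Hochberg adjusted p over all 19462 genes tested was under 0.2. *Setdb1* itself had 28.7 and 37.2 TPM in cKO cells, against 56.9 and 59.3 TPM in WT cells (log2 fold change -0.81 ± 0.27, limma adjusted p = 0.269). The columns summed to between 942186 and 1109730 TPM. Across genes the cKO samples correlated at 0.923 and the WT samples at 0.974. cKO replicate 1 stood furthest from the WT samples (0.876 and 0.886, against 0.944 and 0.952 for cKO replicate 2).

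Summed markers of round spermatids, Leydig cells, erythroid cells, spermatogonia, Sertoli cells and macrophages stood highest in cKO replicate 1. The 9 round spermatid markers summed to 959 and 52.3 TPM in cKO cells, against 14.9 and 20.8 TPM in WT cells, and 2 of 9 were called higher, *Spaca3* and *Spaca4*. The 5 Leydig markers summed to 760 and 108 TPM in cKO cells, against 91.6 and 240 TPM in WT cells, and the 5 erythroid markers to 238 and 53.7 TPM, against 39.3 and 69.7 TPM. The 7 Sertoli markers ranged from 1758 to 1798 TPM in cKO cells and from 1479 to 1719 TPM in WT cells. The 8 spermatogonial markers ranged from 309 to 502 TPM in cKO cells and from 205 to 273 TPM in WT cells. *Uchl1*, itself a member studied here, made up 267 and 193 TPM of the cKO sums and 83.4 and 149 TPM of the WT sums. Without *Uchl1* the spermatogonial sums of the genotypes overlapped. Summed markers of myoid and endothelial cells and of macrophages stayed at or under 30.3 TPM in each sample. The 8 pachytene markers summed to 2308 and 2523 TPM in cKO cells, against 2677 and 3155 TPM in WT cells. Of the 8, 3 were called higher and none lower, against 3.48% and 1.11% of all genes tested. *Ccna1* had 142 and 238 TPM in cKO cells, against 24.7 and 26.1 TPM in WT cells, *Pgk2* had 170.2 and 191 TPM, against 41.6 and 39.4 TPM, and *Spag6* had 109 and 8.15 TPM, against 1.58 and 0.527 TPM. *Piwil1*, which was not called, had 27.2 and 190 TPM, against 445 and 488 TPM. Also lower in both cKO samples without a call were *Sycp1* (360 and 295 TPM, against 566 and 654 TPM), *Sycp3* (656 and 623 TPM, against 769 and 928 TPM) and *Hormad1* (488 and 464 TPM, against 604 and 738 TPM). *Tbpl1* was higher in both without a call (356 and 514 TPM, against 225 and 281 TPM). No listed marker was at 0 in every sample. In its histology the paper found spermatids absent from cKO testes, and it describes the raised spermatid genes as premature expression. Whether the spermatid transcripts came from other cells or from spermatocytes was not tested. The part of other cell types in the results below was not tested either. The paper checked purity in test sorts from wild-type mice at postnatal day 15, where most but not all cells were pachytene. It gives no purity for cKO cells. Fewer cells of a type and less RNA per cell cannot be told apart.

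Promoters of some members are shown first, as the reference sequence of genes whose values follow: the 4 genes called higher, *Stambp*, which was called lower, and the X-linked *Usp26*, which was not called. Each is 300 bases long and spans the RefSeq transcript start (GRCm38.p6), 5′ to 3′ on the gene's strand. Capitals mark a GC box (GGGCGG) or a CCAAT box (CCAAT), on either strand.
Otud6a chrX:100428658-100428957 (plus strand): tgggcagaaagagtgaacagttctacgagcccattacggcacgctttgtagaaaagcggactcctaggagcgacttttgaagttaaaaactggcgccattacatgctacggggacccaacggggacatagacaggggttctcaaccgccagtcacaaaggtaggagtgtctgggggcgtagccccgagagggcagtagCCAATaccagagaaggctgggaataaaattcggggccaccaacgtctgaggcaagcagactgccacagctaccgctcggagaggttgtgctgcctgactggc
Usp11 chrX:20703659-20703958 (plus strand): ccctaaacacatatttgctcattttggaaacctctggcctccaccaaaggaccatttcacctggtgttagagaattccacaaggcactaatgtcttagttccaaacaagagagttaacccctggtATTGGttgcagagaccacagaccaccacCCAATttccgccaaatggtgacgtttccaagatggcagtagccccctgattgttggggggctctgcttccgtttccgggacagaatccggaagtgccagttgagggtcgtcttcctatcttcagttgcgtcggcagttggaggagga
Usp51 chrX:153006219-153006518 (plus strand): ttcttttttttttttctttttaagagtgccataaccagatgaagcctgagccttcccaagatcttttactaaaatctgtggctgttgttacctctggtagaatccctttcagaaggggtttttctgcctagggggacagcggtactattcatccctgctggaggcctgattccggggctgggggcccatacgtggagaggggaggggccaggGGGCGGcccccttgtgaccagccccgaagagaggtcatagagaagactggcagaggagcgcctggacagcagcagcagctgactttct
Usp9y chrY:1459733-1460032 (minus strand): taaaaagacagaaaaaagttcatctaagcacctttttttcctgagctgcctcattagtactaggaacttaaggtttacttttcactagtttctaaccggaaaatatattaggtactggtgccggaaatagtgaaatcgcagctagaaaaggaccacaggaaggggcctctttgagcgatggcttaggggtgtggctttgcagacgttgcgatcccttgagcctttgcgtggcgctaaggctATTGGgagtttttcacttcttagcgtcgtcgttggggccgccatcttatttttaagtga
Usp26 chrX:51801184-51801483 (minus strand): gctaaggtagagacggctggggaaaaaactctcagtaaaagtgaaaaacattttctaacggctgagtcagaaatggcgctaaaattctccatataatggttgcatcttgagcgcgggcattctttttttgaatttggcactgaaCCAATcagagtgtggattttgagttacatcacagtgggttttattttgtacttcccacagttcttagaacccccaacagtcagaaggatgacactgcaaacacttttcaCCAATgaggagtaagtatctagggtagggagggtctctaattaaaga
Stambp chr6:83572455-83572754 (minus strand): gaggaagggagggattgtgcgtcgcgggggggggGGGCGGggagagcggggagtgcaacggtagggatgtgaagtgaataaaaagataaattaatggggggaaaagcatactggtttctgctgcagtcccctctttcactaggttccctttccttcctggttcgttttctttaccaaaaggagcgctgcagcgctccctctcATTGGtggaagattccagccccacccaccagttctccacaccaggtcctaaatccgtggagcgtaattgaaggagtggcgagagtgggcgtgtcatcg

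RefSeq promoters were found for 54 of the 68 members, 60 promoters in all. A GC box lay in 65% of them, against 35.7% of all 32851 promoters in the table, and a CCAAT box in 33.3%, against 37.4%. The TATA box (TATAAA) was in 3.33%, against 13.6%, and the E-box (CACGTG) in 13.3%, against 7.15%, each on either strand. The members' promoters had a median GC content of 63.5%, against 52.7% for all. Of 8 promoters of X-linked members (7 genes), 6 held a CCAAT box, 75%, against 45.0% of the X-linked promoters in the table. These matches are descriptions of the sequence, and the windows shown for *Otud6a*, *Usp11*, *Usp26* and *Usp9y* hold a CCAAT box whereas that of *Usp51* holds a GC box and that of *Stambp* holds both.

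Of the 68 members, 4 were called higher in cKO cells (*Otud6a*, *Usp11*, *Usp51* and *Usp9y*) and 2 were called lower (*Stambp* and *Usp5*). Over all genes 3.48% were called higher and 1.11% lower, 4.6% in all. Each of the 4 higher genes is on a sex chromosome and both lower genes are autosomal. Among X-linked genes 27.6% were called higher, among Y-linked genes 23.8%, and among autosomal genes the shares were 2.32% higher and 1.16% lower. An unadjusted p under 0.05 was reached by 10 members with higher and 2 with lower values, against 9.19% and 4.39% of all genes. The split of calls was 5 higher and 1 lower after rescaling to autosomal genes and 4 higher and 1 lower after quantile normalization. Without cKO replicate 1 the calls were *Usp51* and *Stambp*, 1 in each direction. Without cKO replicate 2 they were 15 higher and 5 lower, in a fit that called 19.7% of all genes. Without either WT sample no gene tested was called (limma), and at an unadjusted p under 0.05 there were then 4 higher members and 1 lower without WT replicate 1, and 6 higher and 1 lower without WT replicate 2.

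**Figure D1:**
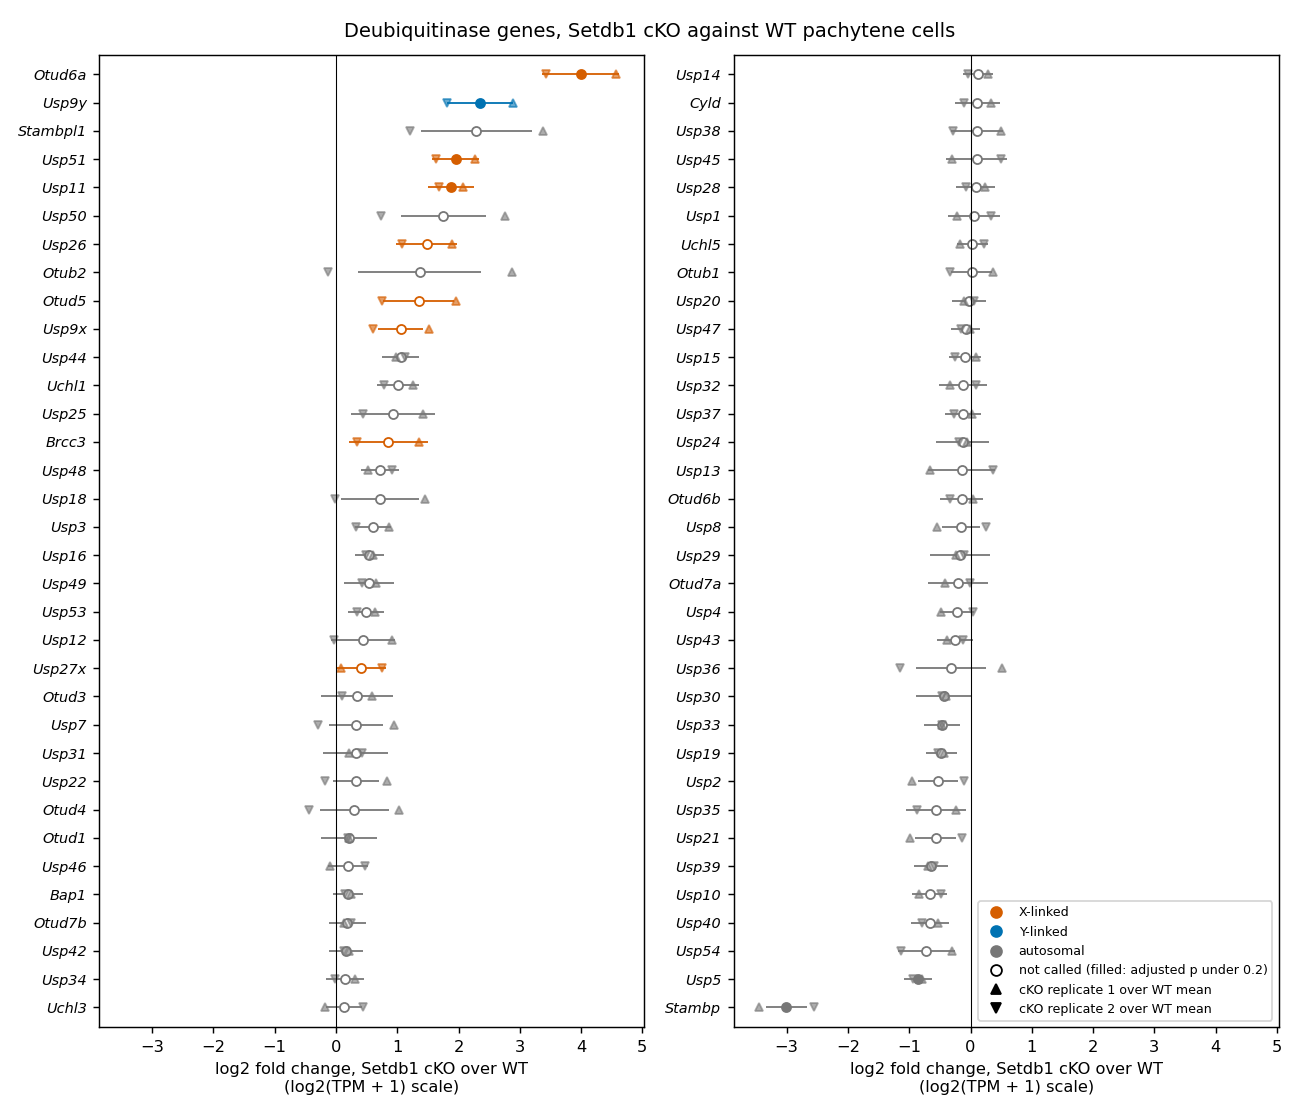
Log2 fold change of each of the 68 deubiquitinase genes, *Setdb1* cKO over WT, on the log2(TPM + 1) scale. Circles are the limma estimate with its standard error, filled where the adjusted p was under 0.2, and triangles give each cKO sample over the WT mean. Colours show X-linked, Y-linked and autosomal genes. *Otud6a* lies highest at 4.0 and *Stambp* lowest at -3.00.

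Over the whole family the summed level moved little. The 68 members summed to 3168 and 3066 TPM in cKO cells, against 3053 and 3231 TPM in WT cells, a ratio of 0.992. Their median log2 fold change was 0.12, which was 0.21 for cKO replicate 1 and 0.05 for replicate 2, and the median of all genes tested was 0.08. Both cKO samples lay above both WT samples for 19 members and below them for 11, and the genotypes overlapped for 38. Over all genes 26.3% lay above and 18.1% below. The cKO samples differed from each other by more than 2-fold for 17 members, with cKO replicate 1 the higher for 14 of them, and the WT samples did so for 14 members.

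The X-linked members had higher values in cKO cells. They summed to 316 and 166 TPM in cKO cells, against 91.5 and 61.9 TPM in WT cells. The ratio was 3.14, and it was 2.72 over all X-linked protein-coding genes. The log2 fold change was above 0 for 8 of 8, as it was for 715 of the 782 X-linked genes tested. The median of the 8 was 1.42, made up of 1.92 for cKO replicate 1 and 0.92 for replicate 2. Over the 782 X-linked genes tested the median was 1.03, with 1.39 for cKO replicate 1 and 0.71 for replicate 2. The genotypes did not overlap for 6 of the 8 X-linked members, where 72.5% of X-linked genes lay above WT in the same way. The call was reached by 3 of the 8, where 27.6% of X-linked genes were called higher, and these calls are lost without either WT sample. Over the alternatives the median of the 8 ranged from 0.92 without cKO replicate 1 to 1.92 without cKO replicate 2, and each of the 8 stayed above 0.

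The autosomal members showed no such shift. Their median log2 fold change was 0.08, against 0.05 for the 18376 autosomal genes tested. Above 0 lay 33 members and below it 26, against 9989 and 8387 of the autosomal genes tested. None of the 59 members was called higher and 2 were called lower (limma), against 3.48% of autosomal genes called in either direction. At an unadjusted p under 0.05 (limma), 4 members were higher and 2 lower, against 7.28% and 4.62% of autosomal genes. For 12 members the cKO samples lay above both WT samples and for 11 below them, against 24% and 18.9% of autosomal genes. The log2 fold change was within 0.5 of 0 for 39 of the 59.

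**Figure D2:**
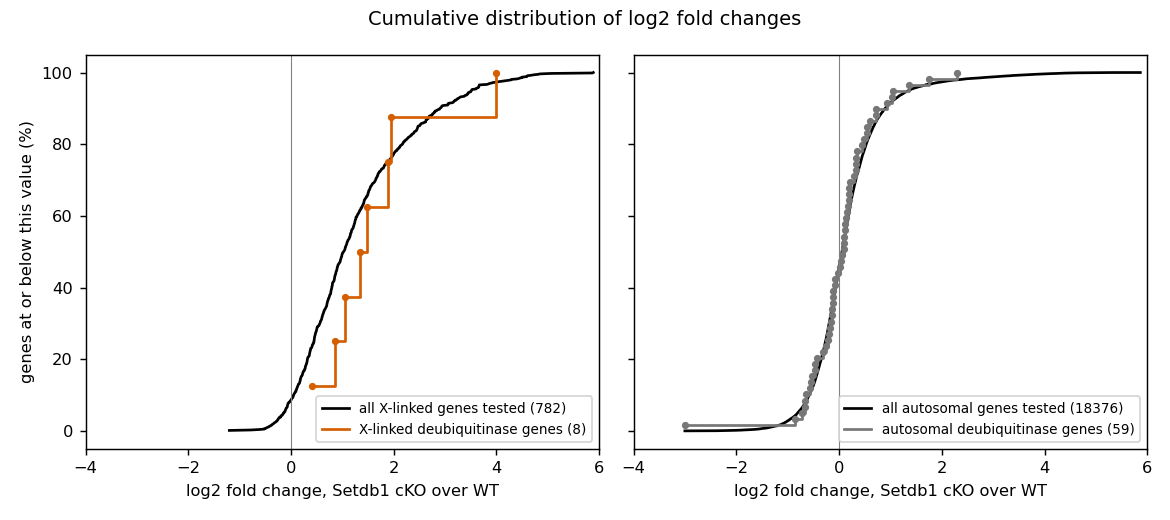
Cumulative share of genes, in percent, at or below each log2 fold change, *Setdb1* cKO over WT. The left panel sets the 8 X-linked deubiquitinase genes beside the 782 X-linked genes tested and the right panel the 59 autosomal ones beside the 18376 autosomal genes tested. All 8 X-linked members lie right of 0, with a median of 1.42, and the autosomal members follow the autosomal genes, except for *Stambp* at -3.00.

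*Otud6a*, an X-linked OTU-family gene with a single exon, had the highest log2 fold change of the members on the log2(TPM + 1) scale. It had 80.6 and 36.0 TPM in cKO cells, against 1.03 and 4.83 TPM in WT cells. Both cKO samples stood well above both WT samples, and the mean was 19.9-fold higher. The log2 fold change was 4.0 ± 0.63 (limma adjusted p = 0.0683), which ranks 100 from the top among the 19462 genes tested, and the call is lost without cKO replicate 1 (log2 fold change 3.42). The gene lies at chrX:100429013-100429885 (GRCm38), and the nearest tested genes were not called. *Awat2* on one side had 5.06 and 2.49 TPM in cKO cells, against 1.99 and 1.69 TPM in WT cells, and *Igbp1* on the other had 9.02 and 8.72 TPM, against 7.48 and 3.97 TPM.

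*Usp51* encodes an enzyme that in human cells removes ubiquitin from H2A and H2B. It was listed at 4.08 and 2.27 TPM in cKO cells, against 0 and 0.108 TPM in WT cells. It was nearly undetected in both WT samples and low in both cKO samples. The log2 fold change was 1.95 ± 0.39 (limma adjusted p = 0.113). The call holds without either cKO sample and is lost without either WT sample.

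*Usp11*, which in human cells deubiquitinates the homologous recombination protein PALB2, had 33.7 and 25.5 TPM in cKO cells, against 8.64 and 6.03 TPM in WT cells. The cKO samples were close to each other and the mean was 4.04-fold higher (log2 fold change 1.88 ± 0.38, limma adjusted p = 0.114). The call is lost without cKO replicate 1. Its 2 tested neighbours beyond its end were called too. *Araf*, a RAF-family kinase gene, had 53.1 and 51.1 TPM in cKO cells, against 18.6 and 22.8 TPM in WT cells. *Syn1*, which encodes a synaptic vesicle protein, had 4.34 and 3.46 TPM in cKO cells and was listed at 0 in both WT samples. *Uba1*, the ubiquitin-activating enzyme gene on the other side, had 90.7 and 56.1 TPM in cKO cells, against 25.9 and 36.6 TPM in WT cells, and missed the threshold (limma adjusted p = 0.209).

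*Usp9y*, on the Y chromosome, had 16.7 and 7.40 TPM in cKO cells, against 1.26 and 1.52 TPM in WT cells. The genotypes were well apart, with a log2 fold change of 2.35 ± 0.54 (limma adjusted p = 0.147), and the call is lost without cKO replicate 1. Its X-linked homologue *Usp9x*, which encodes a large deubiquitinase of endocytic and signalling proteins, was the most abundant sex-linked member. *Usp9x* had 142 and 75.2 TPM in cKO cells, against 59.5 and 40.7 TPM in WT cells (log2 fold change 1.06 ± 0.37, limma adjusted p = 0.291). The ratio of *Usp9x* to *Usp9y* TPM was 8.54 and 10.2 in cKO cells, against 47.2 and 26.7 in WT cells. No 75-base window of *Usp9y* transcripts was found in transcripts of another gene, and 6.46% of *Usp9x* windows were, mostly in *AC134468.1*. Next to *Usp9y*, the transcription factor gene *Zfy2* was called higher, with 73.3 and 39.3 TPM in cKO cells, against 2.46 and 5.69 TPM in WT cells.

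Of the other X-linked members, *Usp26*, which is expressed mainly in testis, had 14.0 and 7.59 TPM in cKO cells, against 2.81 and 3.33 TPM in WT cells (log2 fold change 1.48 ± 0.50, limma adjusted p = 0.273). *Otud5*, a regulator of interferon signalling, had 24.4 and 10.0 TPM in cKO cells, against 8.21 and 3.67 TPM in WT cells (1.35 ± 0.58). In both genes the genotypes were apart but cKO replicate 1 was much the higher cKO sample. *Brcc3*, the lysine-63-specific metalloprotease of BRCA1-A, had 16.2 and 7.60 TPM in cKO cells, against 10.4 and 2.99 TPM in WT cells. *Usp27x*, an H2B deubiquitinase, had 0.603 and 1.56 TPM in cKO cells, against 0.856 and 0.243 TPM in WT cells. The genotypes overlapped for these last genes. In the gene annotation 3 of the 8 X-linked members had at most 2 exons (*Otud6a*, *Usp51* and *Usp27x*), as did 1 of the 59 autosomal members.

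**Figure D3:**
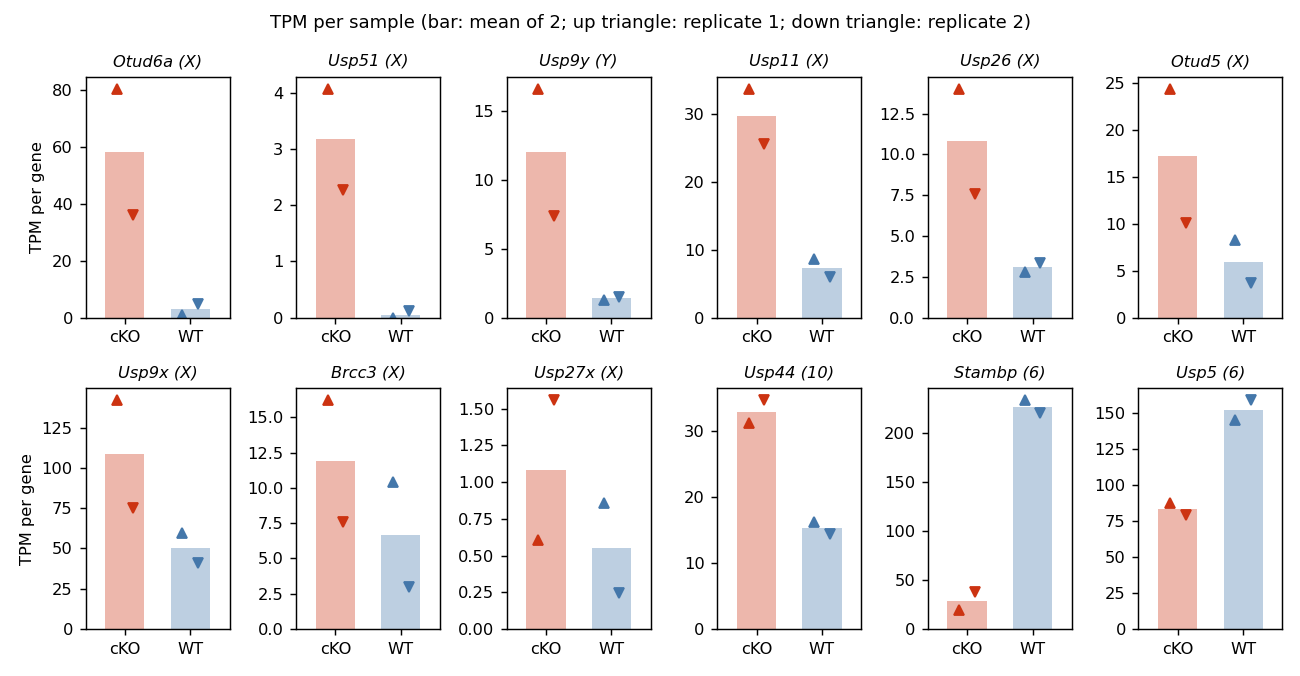
TPM per sample of the 9 sex-linked members, *Usp44*, *Stambp* and *Usp5*, with cKO left of WT in each panel. Bars are the mean of 2 samples, up triangles replicate 1 and down triangles replicate 2, and each panel has its own linear axis from 0. The WT samples of *Otud6a* lie at 1.03 and 4.83 TPM under cKO samples at 80.6 and 36.0 TPM, and *Stambp* shows the opposite order.

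*Stambp* (AMSH) was called lower. It encodes a JAMM metalloprotease that cuts lysine-63-linked chains on endosomes, where it binds the ESCRT-0 protein STAM. *Stambp* had 19.7 and 37.8 TPM in cKO cells, against 233 and 220 TPM in WT cells. It was the second most abundant member in WT cells and the mean was 7.88-fold lower in cKO cells. The log2 fold change of -3.00 ± 0.34 (limma adjusted p = 0.0315) was the lowest of the 19462 genes tested on this scale, ranking 6 from the bottom in cKO replicate 1 and 9 from the bottom in cKO replicate 2. Its share of the summed TPM of all members was 0.623% and 1.23% in cKO cells, against 7.64% and 6.81% in WT cells. The call holds without either cKO sample and under each other alternative apart from leaving out a WT sample. The gene lies at chr6:83543211-83572729 (GRCm38, minus strand). Neither neighbour on each side was called lower, and *Dguok*, a deoxyguanosine kinase gene, had 24.7 and 25.5 TPM in cKO cells, against 24.6 and 29.0 TPM in WT cells.

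The 3 metalloprotease genes summed to 55.9 and 49.0 TPM in cKO cells, against 244 and 226 TPM in WT cells, a difference that *Stambp* alone carried. Without it *Stambpl1* and *Brcc3* summed to 36.2 and 11.3 TPM in cKO cells, against 10.4 and 5.90 TPM in WT cells, the opposite order. *Stambpl1*, the *Stambp* paralogue, had 19.98 and 3.67 TPM in cKO cells, against 0.0433 and 2.91 TPM in WT cells (log2 fold change 2.29 ± 0.91, limma adjusted p = 0.344). Its cKO samples lay above its WT samples, but cKO replicate 2 was close to WT replicate 2. Its partners were not called. *Stam* had 28.0 and 21.6 TPM in cKO cells, against 14.8 and 27.7 TPM in WT cells, and *Hgs*, another ESCRT-0 gene, had 89.2 and 123 TPM, against 114 and 122 TPM.

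*Usp5*, which takes apart free ubiquitin chains, was the other gene called lower. It had 87.5 and 78.8 TPM in cKO cells, against 145 and 159 TPM in WT cells (log2 fold change -0.86 ± 0.23, limma adjusted p = 0.190). The samples of each genotype were close, and the mean was 1.83-fold lower. This call lies near the threshold and is lost with all biotypes tested, after rescaling to autosomal genes, after quantile normalization, without the trend, with the robust option, and without cKO replicate 1 or either WT sample. Its neighbour *Tpi1*, a glycolytic gene, had 105 and 95.7 TPM in cKO cells, against 147 and 177 TPM in WT cells, and was not called.

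**Figure D4:**
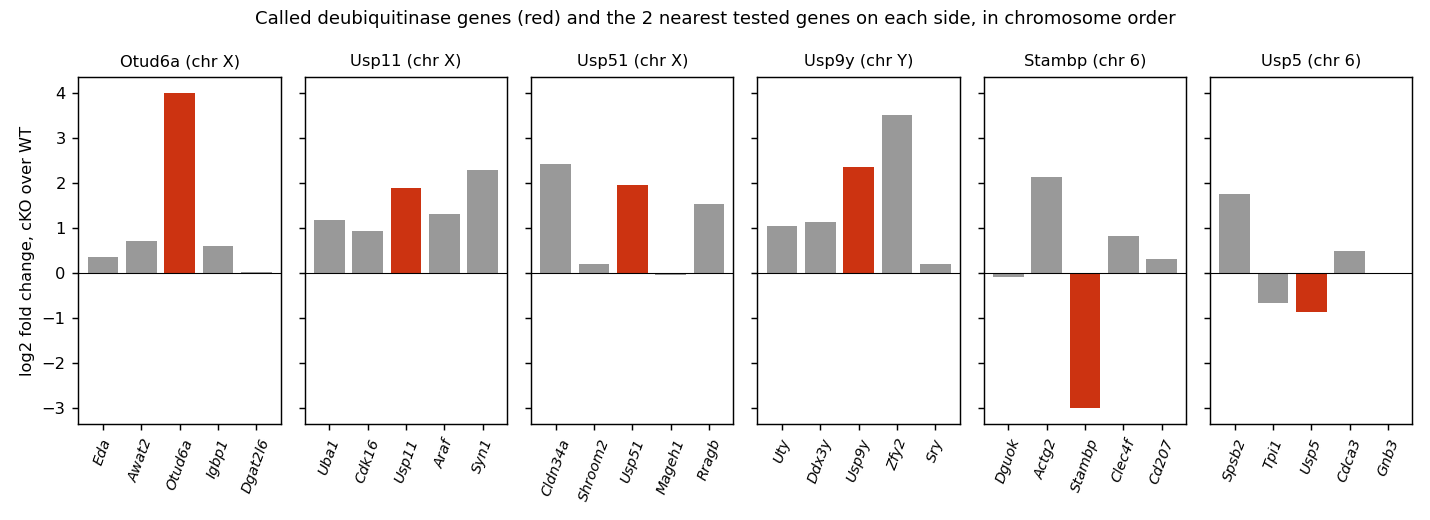
Log2 fold change, *Setdb1* cKO over WT, of the 6 called deubiquitinase genes (red) and of the 2 nearest tested genes on each side (grey), in chromosome order and not to distance. *Stambp* at -3.00 and *Otud6a* at 4.0 stand apart from the genes beside them, whereas the genes around *Usp11* lie between 0.94 and 2.29.

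The other genes of the proteasome and free ubiquitin group were not called. *Uchl1*, a hydrolase abundant in spermatogonia and neurons, had 267 and 193 TPM in cKO cells, against 83.4 and 149 TPM in WT cells (log2 fold change 1.02 ± 0.34, limma adjusted p = 0.274). *Uchl3*, its close relative, had 187 and 288 TPM in cKO cells, against 190 and 238 TPM in WT cells. The proteasome-bound *Uchl5* had 122 and 161 TPM, against 127 and 149 TPM, and *Usp14* had 81.1 and 65.1 TPM, against 64.6 and 68.9 TPM. The genotypes overlapped for these last 3. Of the windows of *Usp14*, *Uchl3* and *Uchl1*, 44.3%, 17.9% and 14.3% also occur in another annotated gene (*Thoc1*, *Uchl4* and *Uchl1os*), so their levels are less certain. In all 12 members shared more than 5% of their windows, among them *Usp49*, *Usp33* (34.9%), *Usp29* (30.8%) and *Usp1* (13.1%), and none of the 6 called members did. With *Usp5* and *Usp13* the 6 genes summed to 746 and 788 TPM in cKO cells, against 613 and 764 TPM in WT cells.

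The 5 genes of the endosome and trafficking group summed to 316 and 525 TPM in cKO cells, against 702 and 729 TPM in WT cells, and *Stambp* carried this difference. The 4 others summed to 296 and 487 TPM in cKO cells, against 469 and 509 TPM in WT cells, so that the genotypes overlapped. The group median log2 fold change was -0.15. *Usp2*, the most abundant member in WT cells, whose loss lowers the fertility of male mice, had 180 and 323 TPM in cKO cells, against 339 and 359 TPM in WT cells (log2 fold change -0.53 ± 0.33, limma adjusted p = 0.551). The genotypes were apart, but cKO replicate 2 was near WT replicate 1. *Usp8*, an endosomal enzyme, had 78.8 and 137 TPM in cKO cells, against 114 and 118 TPM in WT cells.

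Genes acting on ubiquitinated H2A or H2B lay mostly above 0. Of 14 such genes 12 had a log2 fold change above 0, as had 10924 of all 19462 genes tested. The X-linked *Usp51* was the 1 called, where 3.48% of all genes and 27.6% of X-linked genes were called higher. The median of the 14 was 0.43, against 0.08 for all genes tested, and 0.32 for the 11 autosomal ones, against 0.05 for all autosomal genes. For these 11 it was 0.65 for cKO replicate 1 and 0.14 for replicate 2. Over all autosomal genes it was 0.10 and -0.00069. The median of all 14 stayed above 0 under each alternative, from 0.25 with quantile normalization to 0.74 without cKO replicate 2. Over all genes tested the median was -0.11 and 0.13 under the same settings. Without cKO replicate 1, 9 of the 14 lay above 0. The group summed to 547 and 460 TPM in cKO cells, against 394 and 414 TPM in WT cells. *Usp44*, an H2B deubiquitinase that also guards the spindle checkpoint, came closest to a call among autosomal members. It had 31.1 and 34.7 TPM in cKO cells, against 16.3 and 14.4 TPM in WT cells (log2 fold change 1.05 ± 0.30, limma adjusted p = 0.212). The samples of each genotype were close to each other, and the gene passes with a pseudocount of 0.1 or 0.5, with a filter at 1 TPM and after rescaling to autosomal genes.

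*Usp16*, an H2A deubiquitinase, had 113 and 104 TPM in cKO cells, against 70.03 and 78.3 TPM in WT cells. *Usp3*, which also acts on H2A, had 63.2 and 43.1 TPM, against 33.1 and 35.1 TPM, and *Usp49*, which acts on H2B, had 15.0 and 12.7 TPM, against 7.51 and 11.2 TPM, although 48.9% of its windows also occur in *Gm20517*. In these 3 genes both cKO samples lay above both WT samples without a call. *Usp21*, an H2A enzyme, lay on the other side, with 38.7 and 69.96 TPM in cKO cells, against 71.2 and 84.4 TPM in WT cells. The study stained USP7 protein and did not observe it on the XY pair of cKO cells, a measure of location and not of RNA level. *Usp7* RNA had 57.1 and 23.5 TPM in cKO cells, against 32.4 and 26.2 TPM in WT cells (log2 fold change 0.32 ± 0.44, limma adjusted p = 0.833). Its value was high in cKO replicate 1 only, and its log2 fold change is -0.30 without that sample.

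The genotypes also overlapped for *Usp22*, the H2B enzyme of the SAGA coactivator, at 65.9 and 32.2 TPM in cKO cells, against 37.5 and 35.9 TPM in WT cells. They did so for *Bap1*, an H2A enzyme, at 88.9 and 82.7 TPM in cKO cells, against 66.7 and 84.0 TPM in WT cells. *Usp36*, a nucleolar enzyme, had 21.2 and 5.99 TPM, against 15.3 and 13.9 TPM. For the paralogues *Usp12* and *Usp46*, which bind WDR48, the values were 7.85 and 3.56 TPM in cKO cells, against 3.67 and 3.71 TPM in WT cells, and 24.2 and 36.4 TPM in cKO cells, against 28.9 and 23.1 TPM in WT cells.

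**Figure D5:**
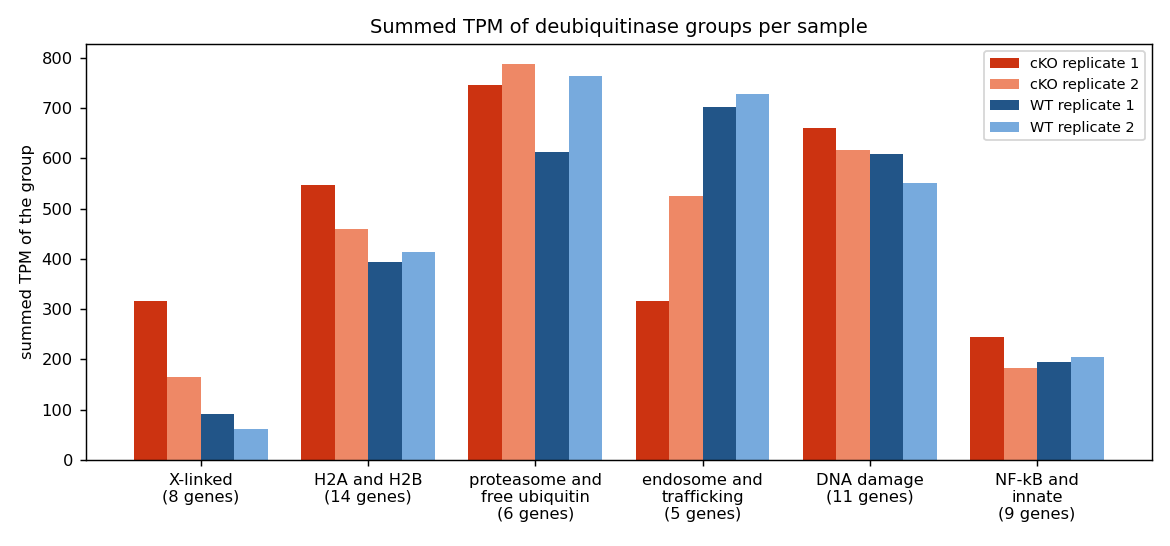
Summed TPM of groups of deubiquitinase genes in each sample, with the 2 cKO samples left of the 2 WT samples. A gene can stand in more than 1 group. The X-linked genes sum to 316 and 166 TPM in cKO cells, above 91.5 and 61.9 TPM in WT cells, and the endosome and trafficking genes to 316 and 525 TPM in cKO cells, under 702 and 729 TPM in WT cells, a difference that *Stambp* carries.

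Genes of DNA damage repair held no autosomal call (limma), where 3.48% of autosomal genes were called. None had an unadjusted p under 0.05 (limma), against 7.28% of autosomal genes with higher and 4.62% with lower values. So few genes cannot show a departure from these shares. Their 9 autosomal members had a median log2 fold change of 0.08. *Usp1*, which acts on FANCD2 and PCNA, had 97.7 and 144 TPM in cKO cells, against 174 and 75.1 TPM in WT cells, so that the WT samples themselves differed. *Usp4* had 86.2 and 124 TPM in cKO cells, against 110 and 132 TPM in WT cells. *Usp48*, which in human cells removes ubiquitin placed on H2A by BRCA1, had 35.5 and 46.9 TPM in cKO cells, against 28.3 and 21.2 TPM in WT cells (log2 fold change 0.71 ± 0.31, limma adjusted p = 0.381). The 9 genes of NF-kB and innate signalling held no call (limma), where 4.6% of all genes were called. At an unadjusted p under 0.05 (limma) there was none either, against 9.19% of all genes with higher and 4.39% with lower values. Among them *Cyld*, whose loss in mice alters germ cell apoptosis, had 18.6 and 13.3 TPM in cKO cells, against 15.5 and 13.6 TPM in WT cells, and *Usp15* had 140 and 110 TPM, against 116 and 149 TPM.

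Of the members left, the furthest apart was *Usp50*, with 38.0 and 8.61 TPM in cKO cells, against 6.17 and 3.60 TPM in WT cells (log2 fold change 1.75 ± 0.70, limma adjusted p = 0.348). Most of its cKO level came from cKO replicate 1. Lower values in both cKO samples were found for *Usp10*, which binds G3BP1, with 23.8 and 31.0 TPM in cKO cells, against 42.0 and 45.3 TPM in WT cells, and for *Usp40*, with 20.3 and 16.8 TPM, against 26.6 and 33.6 TPM. *Usp39*, a splicing factor without protease activity, had 23.8 and 25.6 TPM in cKO cells, against 37.7 and 40.6 TPM in WT cells. The table lists *Usp39* a second time on a patch sequence with identical values, and how reads were shared between both entries was not tested, so its level is uncertain.

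*Usp54*, *Usp19* and *Usp33* lay lower in cKO cells without overlap or call, with log2 fold changes of -0.72, -0.48 and -0.46. *Usp19*, an enzyme anchored in the endoplasmic reticulum, had 142 and 132 TPM in cKO cells, against 167 and 218 TPM in WT cells. *Usp53*, *Usp42* and *Otud7b* lay higher in the same way, with log2 fold changes of 0.49, 0.17 and 0.19. *Usp29*, from an imprinted cluster on chromosome 7, had 5.08 and 5.68 TPM in cKO cells, against 8.15 and 4.61 TPM in WT cells. The 57 autosomal members not called ranged in log2 fold change from -0.72 (*Usp54*) to 2.29 (*Stambpl1*).

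Genes that work with or beside these enzymes were also read from the same fit. Over all genes tested 3.48% were called higher and 1.11% lower (limma), and 27.6% of X-linked genes were called higher. An unadjusted p under 0.05 was reached by 9.19% of all genes with higher and 4.39% with lower values. Of 23 deubiquitinases and related genes outside the name rule, not all of them established deubiquitinases, 1 was called higher and none lower (limma). At an unadjusted p under 0.05 (limma) there were 2 in each direction. The gene called was the X-linked *Alg13*, with 62.9 and 29.3 TPM in cKO cells, against 9.94 and 14.5 TPM in WT cells. *Atxn3*, the ataxin-3 gene, had 77.4 and 33.0 TPM, against 11.7 and 21.6 TPM, and was not called. Lower in both cKO samples, also without a call, were *Josd2* (81.2 and 84.1 TPM, against 123 and 143 TPM) and *Zufsp* (30.7 and 45.2 TPM, against 70.2 and 63.7 TPM). Of 37 partners of deubiquitinases, 3 were called higher and none lower (limma), and at an unadjusted p under 0.05 there were 5 and 2. *Atxn7l1*, on chromosome 12, which encodes a relative of the ataxin-7 subunit of SAGA, had 53.6 and 59.8 TPM in cKO cells, against 12.4 and 12.2 TPM in WT cells (log2 fold change 2.12 ± 0.29, limma adjusted p = 0.0505). All 4 of its samples lay close to their group mean. The others were X-linked. *Scml2*, a Polycomb protein gene of the male germline, had 204 and 109 TPM in cKO cells, against 25.9 and 59.6 TPM in WT cells. *Ogt*, the O-GlcNAc transferase gene, had 68.4 and 60.5 TPM, against 25.3 and 31.6 TPM. The partners not called at an unadjusted p under 0.05 (limma) were *Wdr20* and *Hcfc1*, higher, and *Abraxas1* and *Uimc1*, lower. Their log2 fold changes were 1.05, 1.30, -1.15 and -0.60.

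Among 12 ligases and conjugating enzymes of histone ubiquitination, 1 was called higher and 2 lower, against 3.48% and 1.11% of all genes tested. Of X-linked genes 27.6% were called higher and of Y-linked genes 23.8%. *Ube2a*, an X-linked E2 enzyme gene, had 132 and 79.3 TPM in cKO cells, against 12.2 and 14.2 TPM in WT cells. *Rnf8*, which ubiquitinates H2A at DNA breaks and on the XY body, had 29.6 and 27.5 TPM in cKO cells, against 55.9 and 68.5 TPM in WT cells (log2 fold change -1.09, limma adjusted p = 0.161). *Rnf2*, the Polycomb H2A ligase gene, had 66.2 and 54.4 TPM in cKO cells, against 108 and 126 TPM in WT cells (log2 fold change -0.95, limma adjusted p = 0.183). Both E3 genes were lower in each cKO sample than in each WT sample. Of 7 ubiquitin and E1 genes, the Y-linked *Uba1y* was called higher, with 95.9 and 50.1 TPM in cKO cells, against 20.9 and 25.9 TPM in WT cells. *Ubb*, a polyubiquitin gene, was not called, with 4951 and 5288 TPM in cKO cells, against 5591 and 6275 TPM in WT cells.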

How the data were processed

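RNA-seq of 2 *Setdb1* cKO and 2 WT samples of sorted pachytene cells was used. The ChIP-seq samples were not analysed here. The authors quantified transcripts with kallisto on GRCm38 and summarised them with sleuth. The deposited values are normalized TPM per gene, treated as a signal because the deposited columns do not share a total. The table also holds the authors' p-value, q-value and fold estimates, which were not used. It holds no read counts, so depth is unknown, and count models and counting intervals were not used.

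Genes annotated as protein-coding and averaging over 0.1 TPM in a genotype (19462 of 22603) were compared as log2(TPM + 1) with limma 3.58.1 in R 4.3.3 (eBayes with trend, prior degrees of freedom 4.76, Benjamini-Hochberg over all genes, adjusted p under 0.2). The fit was tested on simulated data. Alternatives were pseudocounts of 0.1 and 0.5, no filter or 1 TPM, every biotype, scaling to autosomal genes, by quantiles or by unweighted TMM factors on TPM, eBayes without trend or robust, a replicate block, and leaving out each sample. Positions, exons and 75-base windows shared between transcripts came from the GRCm38 annotation, promoters from RefSeq (GRCm38.p6). Figures used matplotlib 3.10.9.

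The members and lists were chosen with earlier results of these data known. Genes named are members called, sex-linked, acting on histones, among the 10 highest in WT, known in male germ cells, or among up to 12 further members of at least 10 TPM with the largest change and no overlap, then *Setdb1* and, from the lists of other genes, those called and others of small p. *Stam*, *Hgs*, *Ubb*, the named markers and the neighbours of called genes were added as context after their values were seen.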

Additional observations from a re-analysis of the deposited data

How the results depend on the processing

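With every sample kept, the members called numbered 5 to 8 under each alternative, against 6, and *Otud6a*, *Usp11*, *Usp51*, *Usp9y* and *Stambp* stayed among them. Over all genes 895 were called, 448 with eBayes without trend and 1409 with the replicate block. No pairing by replicate number is stated, and a correlation of deviations of 0.03 over 2 pairs cannot decide whether there was one. With the replicate block 8 members were called, 6 higher (*Usp9x* and *Usp50* added) and 2 lower. Leaving out 1 sample gave 0 to 20 members and 0 to 3837 genes (the lower ends without a WT sample, the upper ends without cKO replicate 2, and 2 members and 670 genes when cKO replicate 1 was left out). The fit then takes the lone sample to vary like the other genotype. The ratio of summed TPM of all members was 0.992, 1.09 after rescaling to autosomal genes, 0.911 with TMM factors and 0.965 to 1.02 with a sample left out. The median log2 fold change of all genes moved to 0.18 after rescaling to autosomal genes and to -0.11 after quantile normalization, against 0.08. Among named members not called, the sign turned for *Cyld* with quantile normalization (-0.14), for *Cyld*, *Uchl5*, *Usp1* and *Usp14* with TMM factors (-0.0029, -0.094, -0.066 and -0.00035) and for *Usp15* after rescaling to autosomal genes (0.057). With a sample left out the log2 fold change ranged from -0.11 to 0.34 for *Cyld*, -0.18 to 0.44 for *Uchl3*, -0.17 to 0.23 for *Uchl5*, -0.54 to 0.65 for *Usp1*, -0.040 to 0.92 for *Usp12*, -0.035 to 0.28 for *Usp14*, -0.26 to 0.094 for *Usp15*, -0.18 to 0.83 for *Usp22*, -0.52 to 0.18 for *Usp29*, -1.15 to 0.51 for *Usp36*, -0.48 to 0.038 for *Usp4*, -0.091 to 0.48 for *Usp46* and -0.30 to 0.95 for *Usp7*. The cause was not tested. No read depth was given, so calls among low genes such as *Usp51* rest on values whose counting error is unknown.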
